A study of Rattus norvegicus with 6 samples.

Results

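The liver makes most of the proteins of blood plasma, and 40 rat genes for such secreted proteins were followed in liver after dosing with pregnenolone-16α-carbonitrile (PCN). The genes were chosen by function, but with earlier results of these data known. They comprise 16 acute phase and carrier proteins, 16 coagulation proteins and 8 complement proteins. A probe was assigned to a gene through the transcript accession given for it in the scanner files. Of the 40 genes, 37 had a matched probe and all 37 were tested, among 16389 genes and unnamed features tested in all. The clotting factor genes F5 and F11 and the complement gene C5 had no matched probe and were not analysed here.

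The livers came from 6 male Wistar Hannover rats (RCCHan:WIST), 3 in each group, and each rat was measured on its own Agilent 1-colour array. The rats were bought at 4 weeks of age and quarantined for 1 week. The PCN group received 100 mg/kg per day of PCN in corn oil by gavage for 7 days, and the control group received corn oil alone by the same route. PCN, a synthetic steroid, is a ligand of the pregnane X receptor (PXR) of rodents, a nuclear receptor of hepatocytes that induces genes of drug metabolism, so the comparison asks how that exposure left the transcripts of secreted proteins. The tissue was whole liver, and in bulk tissue fewer cells of a type and less RNA per cell cannot be told apart.

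During inflammation, cytokines such as interleukin-6 act on hepatocytes through STAT3 and C/EBP factors and raise the acute phase proteins, while proteins such as albumin and fetuin-A decline. Clotting runs through a cascade of proteases, many of them dependent on vitamin K, to thrombin, which turns fibrinogen into fibrin, and a separate set of inhibitors and proteases limits the clot. Complement is a cascade that opsonises and lyses microbes, and its central component C3 is itself made largely by hepatocytes.

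Values are log2 signals divided by the 75th percentile of the same array (log2 scaled signal), and each change is a log2 fold change (PCN minus control) with its standard error (SE) from limma over 3 arrays a group. A gene is said to have risen or fallen where its Benjamini-Hochberg adjusted p over all 16389 genes was under 0.05. The 75th percentile was 633 to 758 intensity units on the control arrays and 488 to 627 on the PCN arrays. All 10 tested PXR target genes rose, with a median log2 fold change of 2.42. Of 12 other hepatocyte markers 1 rose (Apoa2), and their summed scaled signal was 1751 to 1860 in the controls and 1721 to 2219 with PCN. Several of these markers, Ttr, Tf, Apoa1, Apoa2 and Apob, themselves encode secreted plasma proteins. Ttr and Tf are also counted among the further plasma carriers below. The hepatocyte sum is therefore not a measure apart from the kind of gene under study. Of 11 Kupffer cell markers none passed limma's test, and 3 were lower at an unadjusted p under 0.05, against 24.5% of all genes. All 11 had a negative log2 fold change (-0.52 to -0.12), as had 57.6% of all genes. Scaling on array medians moved the median of all genes from -0.06 to 0.14, so the signs of small changes depend on the scaling. The summed scaled signal of the Kupffer cell markers was 71.7 to 82.2 in the controls and 51.6 to 74.5 with PCN. Among markers of other cells, 2 of 5 for T cells fell (Lck and Cd3d), as did 2 of 10 for stellate cells (Lrat and Acta2, while Rgs5 rose), Cdh5 of 5 endothelial, Fcnb of 4 neutrophil and Gp9 of 2 platelet markers. None of 5 cholangiocyte, 3 red cell and 2 B cell markers passed. The summed scaled signal was 0.61 to 0.75 in the controls and 0.42 to 0.53 with PCN for T cells. For cholangiocytes it was 0.46 to 0.56 in the controls and 0.59 to 0.68 with PCN. The sums of the stellate, endothelial, neutrophil, platelet, B cell and red cell markers overlapped between groups. The part of these markers in the results on plasma proteins was not tested. The 3 control arrays shared 1 slide and the 3 PCN arrays another, so that effects of slide and of treatment cannot be told apart.

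The transcripts of secreted plasma proteins differed little between the groups. Only 1 of the 37 tested members passed the test, Kng1, which encodes kininogen, and it fell. That is 2.70% of the members, against 19.9% of all genes tested (4.37% rose and 15.5% fell). At an unadjusted p under 0.05 there were 4 members, all lower, or 10.8%, against 34.5% of all genes (24.5% lower and 10% higher). The 3 PCN arrays lay below all 3 control arrays for 4 members (Kng1, Fgg, F7 and Serpind1), or 10.8%, against 26.7% of all genes. They lay above all controls for 1 member, Cfb, or 2.70%, against 14.7% of all genes. Groups without overlap were thus seen in 5 of 37 members, against 41.4% of all genes, and each of these shares of the members was below the share over all genes.

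The median log2 fold change was -0.02 over the members and -0.06 over all genes. It was under 0.2 in size for 25 of 37 members (67.6%), compared with 44.0% of all genes. No member had a fold change of 2 or more, whereas 9.40% of all genes had. The 95% interval lay within 1 log2 unit of 0 for 32 of 37 members, so for these a 2-fold change lay outside the interval. For 5 members a 2-fold change lay inside it: A2m, Orm1, Lbp, Kng1 and C6. The 95% intervals are those of the single genes and are not adjusted for the number of genes.

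**Figure D1:**
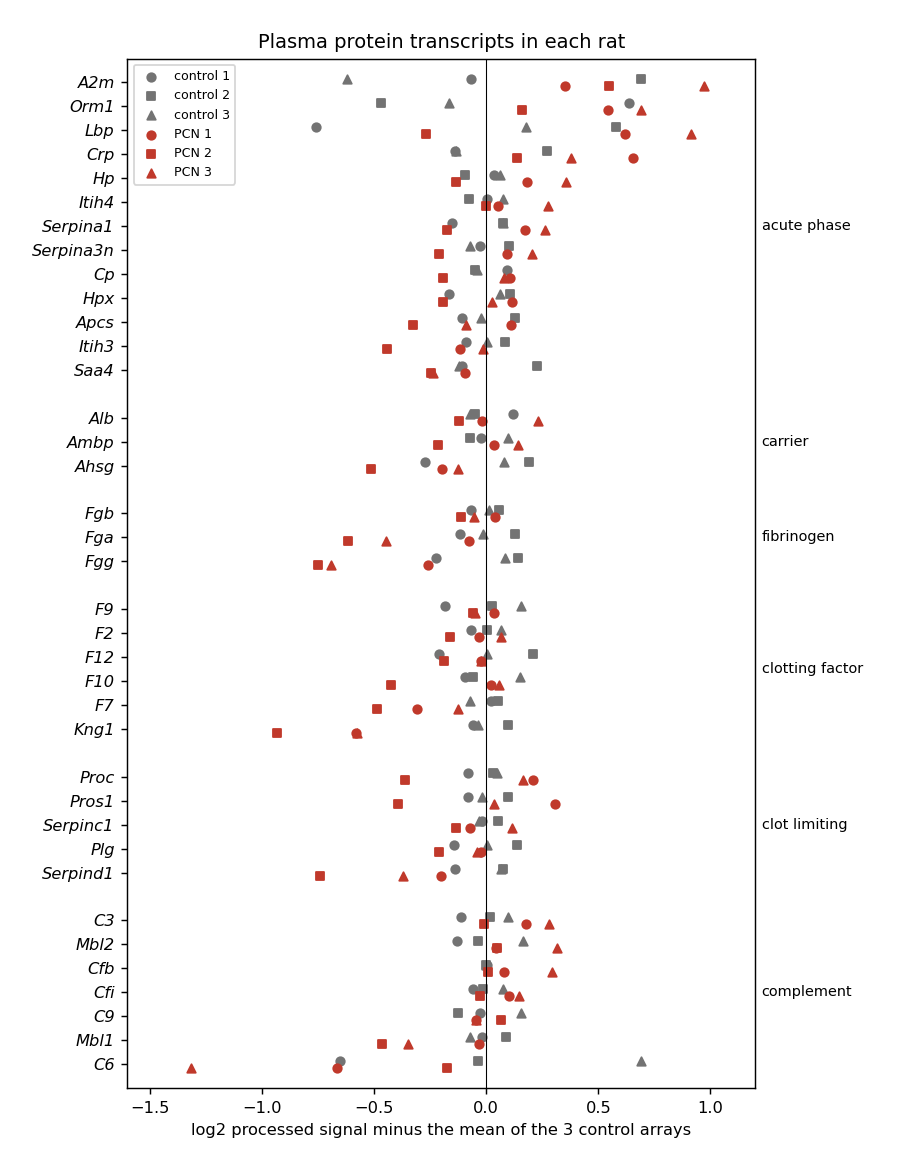
Log2 processed signal of each of the 37 members on each array, scaled to the 75th percentile of the array and shown as the difference from the mean of the 3 control arrays; grey points are control rats, red points PCN rats, and the shape gives the replicate number. Kng1 is the member whose 3 PCN rats sit farthest below its controls without overlap, whereas A2m, Lbp and C6 scatter widely within each group.

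All 37 members were well above background on all 6 arrays and no spot of a member was saturated, the brightest (Hp) reaching 45.3% of saturation. The median standard deviation (SD) between repeated spots of a probe on 1 array was 0.032 log2 units. The median SD between rats was 0.12 in the controls and 0.21 with PCN, so the spread between animals and arrays, not between spots, set the errors. PCN rat 2 had the lowest value of the 6 for 24 of 37 members, and over all genes it was lowest for 30.2%.

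Among the 13 acute phase genes none passed the test. Their log2 fold changes ran from -0.19 for Saa4 to 0.62 for A2m, with a median of 0.09, and all 13 had overlapping groups. A2m encodes alpha-2-macroglobulin, a broad protease inhibitor and a classical acute phase protein of the rat. Its log2 scaled signal was -0.22, 0.54 and -0.77 in control rats 1 to 3 and 0.20, 0.39 and 0.82 in PCN rats 1 to 3. The control rats spanned more than the PCN rats did, and control rat 2 was above PCN rats 1 and 2. Its log2 fold change was 0.62 ± 0.34 (SE, n = 3 per group, limma adjusted p = 0.242), and a second A2m probe gave 0.35. The value rested on single rats, at 0.31 without control rat 3 and 0.97 without control rat 2.

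Other genes of inflammation, Orm1, Crp and Lbp, had the next highest values in the group. Orm1, encoding the drug-binding plasma protein alpha-1-acid glycoprotein, was at 4.79, 3.69 and 3.99 in the controls and 4.70, 4.32 and 4.85 with PCN. Crp, encoding the pentraxin C-reactive protein, was at 1.63, 2.04 and 1.64 in the controls and 2.43, 1.91 and 2.15 with PCN. Lbp, encoding the lipopolysaccharide-binding protein, was at 0.45, 1.79 and 1.39 in the controls and 1.83, 0.94 and 2.12 with PCN. In each of these genes at least 1 control rat lay above at least 1 PCN rat. The log2 fold changes were 0.46 ± 0.30 for Orm1 (adjusted p = 0.317), 0.39 ± 0.18 for Crp (adjusted p = 0.174) and 0.42 ± 0.42 for Lbp (adjusted p = 0.525).

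Saa4, the constitutive serum amyloid A of high density lipoprotein, was at the lower end. It was at 7.91, 8.25 and 7.90 in the controls and 7.92, 7.77 and 7.78 with PCN. PCN rat 1 lay within the range of the controls, and control rat 2 stood above the other 5 rats. Its log2 fold change was -0.19 ± 0.13 (adjusted p = 0.338), and a second, dimmer Saa4 probe gave -0.05. The other 8 acute phase genes lay between -0.19 and 0.14. They were those for haptoglobin and hemopexin (Hp, Hpx), which bind free haemoglobin and haem, for the protease inhibitors Serpina1 and Serpina3n, for the pentraxin Apcs, for the inter-alpha-trypsin inhibitor heavy chains Itih3 and Itih4, and for the copper-carrying ferroxidase ceruloplasmin (Cp). Cp had probes that disagreed. The brighter one, which represents the gene, had a log2 fold change of -0.0032 ± 0.12, and a dimmer one had -0.49 ± 0.13 (adjusted p over probes = 0.0439). That dimmer probe was at 1.59, 1.56 and 1.46 in the controls and 1.26, 0.85 and 1.03 with PCN, without overlap.

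The 3 carrier proteins did not pass the test either. Alb, encoding albumin, was at 8.47, 8.30 and 8.28 in the controls and 8.33, 8.23 and 8.58 with PCN. The groups overlapped throughout, with a log2 fold change of 0.03 ± 0.13 (95% interval -0.27 to 0.33, adjusted p = 0.895). Ahsg, encoding fetuin-A, an inhibitor of calcification that declines in the acute phase, was at 7.64, 8.10 and 7.99 in the controls and 7.72, 7.40 and 7.78 with PCN. Control rat 1 lay below PCN rats 1 and 3, and the log2 fold change was -0.28 ± 0.17 (adjusted p = 0.287). Ambp, whose precursor is split into alpha-1-microglobulin and the protease inhibitor bikunin, had a log2 fold change of -0.01 ± 0.13.

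The 14 tested coagulation genes held the 1 member that fell, and 13 of the 14 (92.9%) had a negative log2 fold change, against 57.6% of all genes. Their median was -0.09 against -0.06 over all genes, and it was 0.12 against 0.14 when arrays were scaled on their medians. The number of negative values therefore depends on the scaling. It also leaned on PCN rat 2, in which 14 of the 14 genes lay below their control mean. In PCN rat 1 and in PCN rat 3 there were 9 such genes, and in control rat 1 there were 13. The 3 fibrinogen chains, which assemble into 1 hexameric protein with equal numbers of each chain, had unlike log2 fold changes, and none of them passed the test. The promoter windows of the 3 chains and of Kng1 are given here because the coagulation results turn on these genes, which include the member that fell and the chains with unlike changes. They come from RefSeq on the rat assembly GRCr8, cover up to 250 bases before the annotated gene start, and are written 5′ to 3′ on the strand of the gene. Capitals mark every match to the C/EBP motif TTGCNNAA or the STAT motif TTCNNNGAA on either strand, and no match overlaps another in these windows. Fga lies at chr2:170671919-170672168 (plus strand), Fgb at chr2:170700876-170701125 (minus strand), Fgg at chr2:170652833-170652928 (plus strand, 96 bases) and Kng1 at chr11:91340149-91340398 (minus strand).
Fga: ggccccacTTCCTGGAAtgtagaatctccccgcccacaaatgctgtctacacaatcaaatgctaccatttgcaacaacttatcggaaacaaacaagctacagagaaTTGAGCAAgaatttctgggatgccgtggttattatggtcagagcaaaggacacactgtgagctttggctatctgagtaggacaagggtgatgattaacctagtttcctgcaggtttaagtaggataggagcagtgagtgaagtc
Fgb: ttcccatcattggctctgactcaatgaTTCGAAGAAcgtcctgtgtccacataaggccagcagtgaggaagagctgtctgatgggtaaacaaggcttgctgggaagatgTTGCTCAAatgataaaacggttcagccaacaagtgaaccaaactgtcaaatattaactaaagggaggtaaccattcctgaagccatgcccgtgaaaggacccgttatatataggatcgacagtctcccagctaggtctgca
Fgg: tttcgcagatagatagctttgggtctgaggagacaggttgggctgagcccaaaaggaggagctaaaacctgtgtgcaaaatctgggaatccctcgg
Kng1: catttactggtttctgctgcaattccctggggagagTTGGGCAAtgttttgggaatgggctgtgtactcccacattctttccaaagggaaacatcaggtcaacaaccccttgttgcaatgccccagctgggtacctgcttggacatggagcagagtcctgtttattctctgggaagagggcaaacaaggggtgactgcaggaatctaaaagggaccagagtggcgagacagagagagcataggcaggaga

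In these windows Fga and Fgb each had 1 C/EBP and 1 STAT match, Kng1 had 1 C/EBP match, and the shorter Fgg window had none. The C/EBP match began 144 bases before the start in Fga, 141 in Fgb and 214 in Kng1, and the STAT match 242 bases before it in Fga and 223 in Fgb. Of the 40 genes, 33 had a promoter entry. The C/EBP motif was in 13 of the 33 (39.4%) and in 9.22% of all 33469 promoters. The STAT motif was in 6 of 33 (18.2%) and in 7.67% of all. A member gene was counted where any of its promoter entries had a match, while the share over all is of single entries. The shares are therefore not counted alike. A match is a description of letters in the window and not evidence of binding.

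Fgb, encoding the fibrinogen beta chain, was at 8.55, 8.67 and 8.62 in the controls and 8.65, 8.50 and 8.56 with PCN. The groups overlapped and the log2 fold change was -0.04 ± 0.10 (95% interval -0.27 to 0.19, adjusted p = 0.805). Fga, encoding the alpha chain, was at 7.24, 7.48 and 7.34 in the controls and 7.28, 6.74 and 6.91 with PCN. PCN rats 2 and 3 were below every control while PCN rat 1 was not, and the log2 fold change was -0.38 ± 0.16 (adjusted p = 0.147).

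Fgg, encoding the gamma chain, was at 6.93, 7.29 and 7.23 in the controls and 6.89, 6.40 and 6.46 with PCN. All PCN rats lay below all controls, PCN rat 1 by only a small margin. Its log2 fold change was -0.57 ± 0.17 (95% interval -0.98 to -0.16, adjusted p = 0.0616), which missed the threshold. Without PCN rat 1, Fgg (adjusted p = 0.0297) and Fga (adjusted p = 0.04996) passed it and 3 members were called in all. Over all alternatives the adjusted p ran from 0.0157 to 0.168 for Fgg and from 0.0300 to 0.386 for Fga.

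The chains can also be compared within each array, where any scaling of a whole array cancels. These pairs were chosen after their values were seen, so no test was made, and the offset between 2 probes has no meaning of its own. Fgg minus Fgb was -1.62, -1.38 and -1.39 in the controls and -1.76, -2.10 and -2.10 with PCN, so its mean moved by -0.53. Fga minus Fgb was -1.31, -1.19 and -1.29 in the controls and -1.38, -1.76 and -1.65 with PCN, so its mean moved by -0.34. In both pairs the PCN rats were all below the controls, with PCN rat 1 closest to them (for Fga minus Fgb -1.38 against -1.31 in control rat 1). How often other pairs of genes separate in this way was not counted, so no conclusion on the chains is drawn from it.

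**Figure D2:**
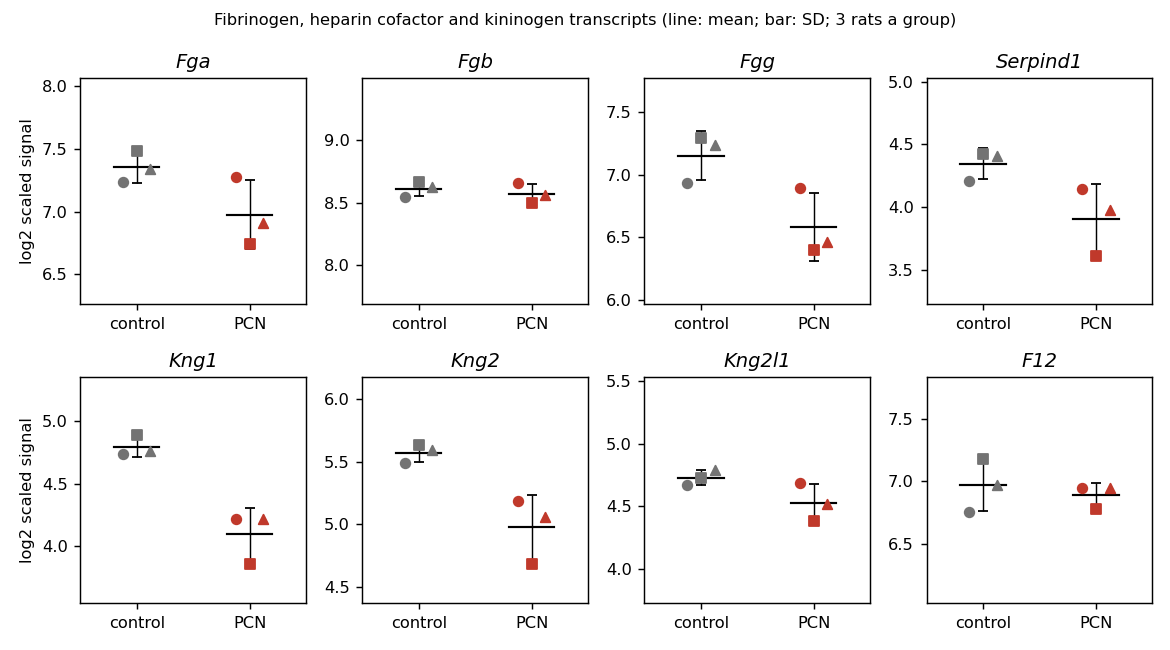
Log2 scaled signal of the 3 fibrinogen chains, Serpind1, Kng1, its near copies Kng2 and Kng2l1, and F12 in control (grey) and PCN (red) rats; lines are means, bars SD over 3 rats, and all panels span the same log2 range. Kng1 and Kng2 are lower in all PCN rats than in all controls, and the Fgb and F12 groups overlap.

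Kng1 encodes kininogen, the precursor of bradykinin and, in its high molecular weight form, a cofactor of contact activation. It was at 4.74, 4.89 and 4.76 in the controls and 4.22, 3.86 and 4.22 with PCN. All PCN rats were below all controls, with a gap wider than the range within either group. The log2 fold change was -0.70 ± 0.13 (95% interval -1.01 to -0.38, adjusted p = 0.0134), or 1.62-fold lower. Kng1 passed the test in each of the 6 fits that left out 1 rat, with adjusted p from 0.0225 to 0.0492.

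The rat has further kininogen genes of the T-kininogen type, which are near copies of Kng1, and probes may take up transcripts of a copy. Such cross-hybridisation was not tested, so the assignment of the fall to 1 kininogen gene is uncertain. Kng2 was at 5.49, 5.63 and 5.59 in the controls and 5.19, 4.68 and 5.06 with PCN. Kng2 fell, without overlap, by 0.60 ± 0.15 on the log2 scale (adjusted p = 0.0348), and it passed the test in 2 of the 6 fits that left out 1 rat (adjusted p from 0.0334 to 0.102). Kng2l1 was at 4.67, 4.73 and 4.79 in the controls and 4.68, 4.38 and 4.52 with PCN. PCN rat 1 lay within the controls for Kng2l1, and the log2 fold change was -0.20 ± 0.11 (adjusted p = 0.261).

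The other clotting factors had small changes. F7, encoding factor VII, which starts the extrinsic pathway with tissue factor, was at 1.06, 1.09 and 0.97 in the controls and 0.73, 0.55 and 0.91 with PCN. The groups did not overlap, PCN rat 3 being close to control rat 3. The log2 fold change of F7 was -0.31 ± 0.12 (adjusted p = 0.127). F9, encoding the vitamin K-dependent factor IX, was at 2.39, 2.59 and 2.73 in the controls and 2.60, 2.51 and 2.52 with PCN. The PCN rats all lay inside the range of the controls, and the log2 fold change was -0.03 ± 0.12 (adjusted p = 0.908). The genes for prothrombin (F2), factor X (F10) and factor XII (F12) overlapped between groups, with log2 fold changes of -0.04 ± 0.11, -0.12 ± 0.16 and -0.08 ± 0.13.

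Of the 5 genes whose products limit or dissolve clots none passed the test. Serpind1, encoding heparin cofactor II, a thrombin inhibitor, was at 4.21, 4.42 and 4.41 in the controls and 4.14, 3.61 and 3.97 with PCN. The groups did not overlap, and PCN rat 1 was close to control rat 1. The log2 fold change of Serpind1 was -0.44 ± 0.16 (95% interval -0.82 to -0.06, adjusted p = 0.102). Proc, encoding the anticoagulant protease protein C, was at 2.77, 2.88 and 2.90 in the controls and 3.05, 2.48 and 3.01 with PCN. PCN rats 1 and 3 were above all controls and PCN rat 2 below them, with a log2 fold change of 0.0032 ± 0.17 (adjusted p = 0.993). Pros1 (protein S, the cofactor of protein C), Serpinc1 (antithrombin) and Plg (plasminogen, the precursor of plasmin) had log2 fold changes of -0.02 ± 0.18, -0.03 ± 0.11 and -0.09 ± 0.12, all with overlapping groups.

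None of the 7 tested complement genes passed the test. C3 was at 8.47, 8.59 and 8.67 in the controls and 8.76, 8.57 and 8.86 with PCN. PCN rat 2 lay within the controls, and the log2 fold change was 0.15 ± 0.12 (adjusted p = 0.422). Cfb, encoding factor B, the protease of the alternative pathway, was at 7.97, 7.96 and 7.97 in the controls and 8.05, 7.97 and 8.26 with PCN. The controls were nearly identical and all PCN rats lay above them, PCN rat 2 barely. The log2 fold change of Cfb was 0.13 ± 0.11 (adjusted p = 0.462).

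C6, a component of the membrane attack complex, had a negative log2 fold change with a wide spread between rats. It was at 1.46, 2.07 and 2.79 in the controls and 1.44, 1.93 and 0.79 with PCN. The groups overlapped, and the log2 fold change was -0.72 ± 0.40 (95% interval -1.68 to 0.24, adjusted p = 0.258). It was -0.37 without control rat 3, -0.42 without PCN rat 3 and -1.04 without control rat 1. Mbl1 and Mbl2 encode the mannose-binding lectins A and C, which start the lectin pathway, and had log2 fold changes of -0.28 ± 0.14 (adjusted p = 0.199) and 0.14 ± 0.13 (adjusted p = 0.509). C9, which forms the pore of the membrane attack complex, and Cfi, the protease that inactivates C3b and C4b, had -0.0081 ± 0.11 and 0.08 ± 0.10, with overlapping groups.

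**Figure D3:**
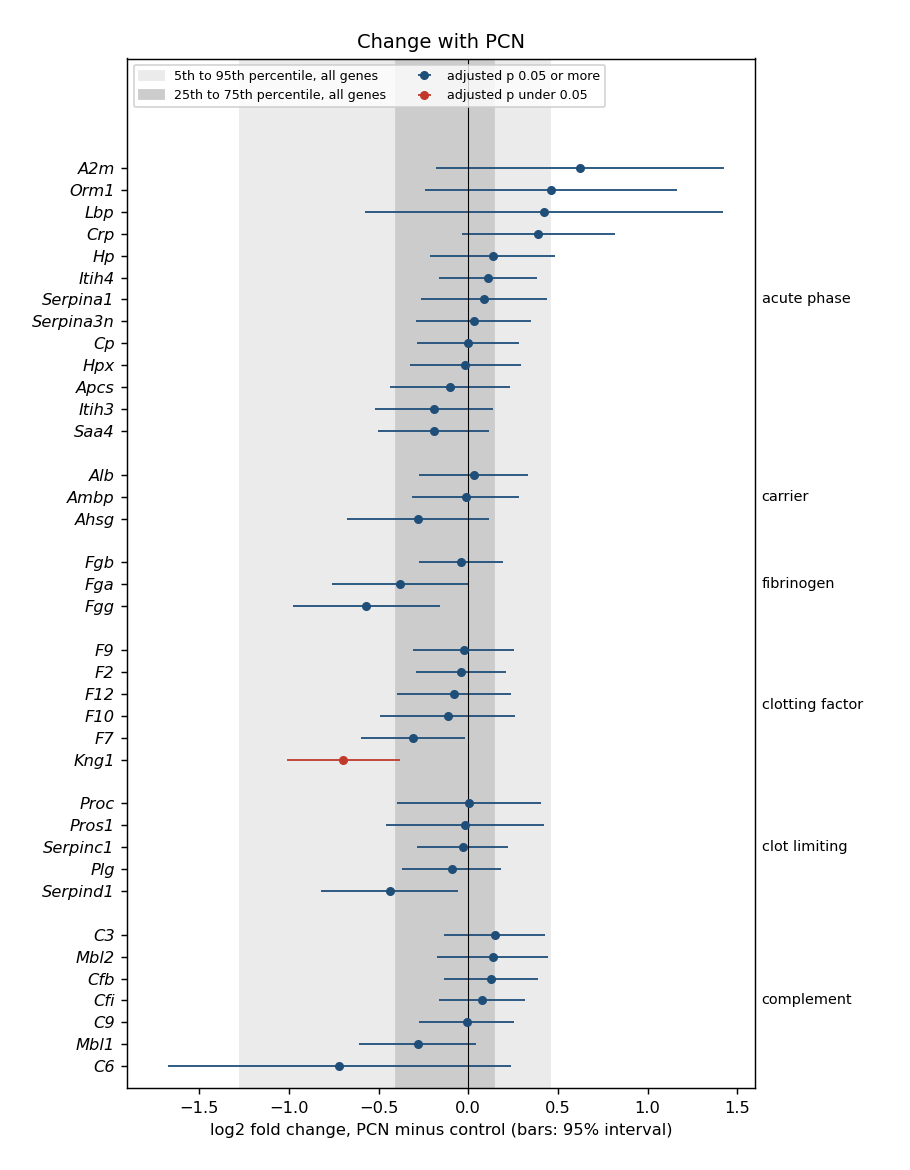
Log2 fold change (PCN minus control) of the 37 members with 95% intervals, grouped by role; the grey bands hold the middle of all 16389 tested genes (25th to 75th percentile, -0.40 to 0.14, and 5th to 95th percentile, -1.27 to 0.46). Kng1, in red, is the only member past the test, and 25 of 37 members lie within 0.2 of 0.

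The median log2 fold change was 0.03 for the 16 acute phase and carrier genes, -0.09 for the 14 coagulation genes and 0.08 for the 7 complement genes. These medians depended on how arrays were scaled. Scaling on array medians moved the median of all genes from -0.06 to 0.14 and made all 3 class medians positive, and scaling on spike-in controls moved it to -0.31 and made all 3 negative. The difference between classes within an array does not depend on a scaling of the whole array. The coagulation median minus the acute phase and carrier median, each taken over deviations from the control mean, was -0.01, -0.03 and 0.02 in the controls and -0.13, -0.19 and -0.26 with PCN. Because the deviations are taken from the mean of the controls, the control values are held near 0 by construction and the PCN values are not, so nothing is read from the gap between the groups. The coagulation median minus the complement median was -0.03, 0.08 and -0.09 in the controls and -0.07, -0.37 and -0.19 with PCN, and here PCN rat 1 lay within the controls. The classes are lists of genes and no test was made over them.

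**Figure D4:**
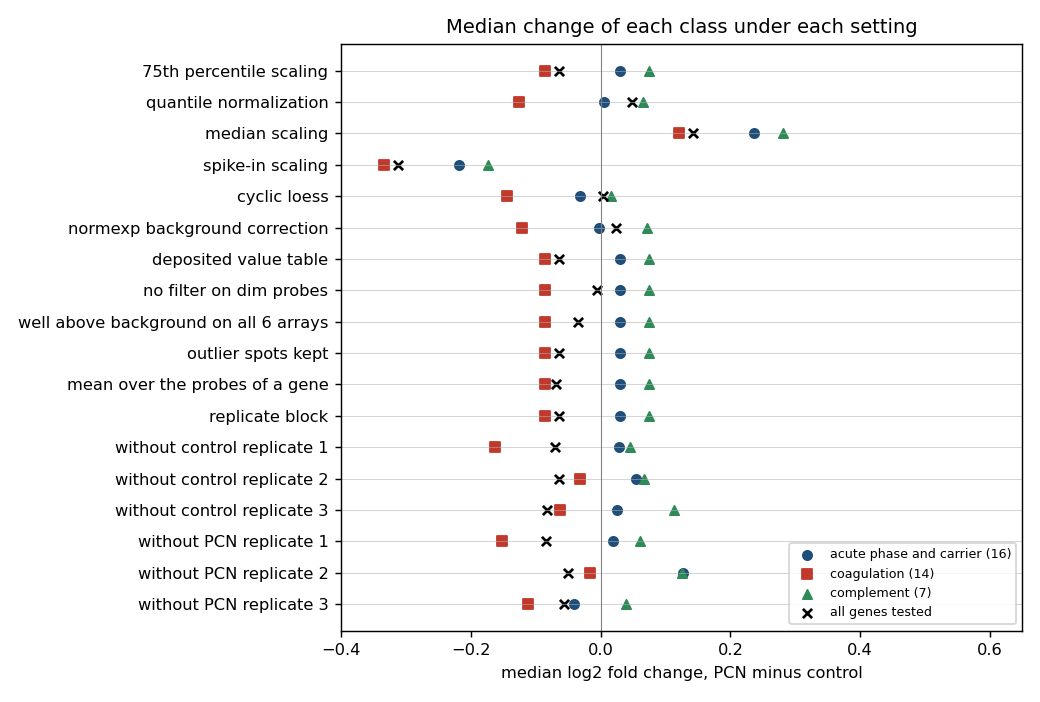
Median log2 fold change (PCN minus control) of each class and of all tested genes under each processing setting, one line per setting. Coagulation is the lowest of the 3 classes in each setting drawn, while the position against 0 moves with the scaling. Scaling on medians or spike-in controls shifts all classes alike and cannot change their order. The filter, outlier, probe-mean and block settings left the class medians as they were, so the lines are not independent support for the order.

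Other genes of the same pathways were read from the same fit, 102 tested of 125 listed, of which 4 rose and 5 fell. That is 8.82% (3.92% higher and 4.90% lower), against 19.9% of all genes (4.37% higher and 15.5% lower). All 4 rises, those of Azgp1, Nqo1, Nfkbia and Hnf4a, lost their call when arrays were scaled on spike-in controls, with log2 fold changes that stayed positive at 0.22, 0.72, 0.19 and 0.38. Of 23 further plasma carriers and transport proteins 1 rose and 1 fell, with a median of -0.06. Fn1, encoding fibronectin, whose plasma form is made by hepatocytes, was at 5.64, 5.50 and 5.61 in the controls and 4.96, 4.63 and 4.53 with PCN. Fn1 fell by 0.88 ± 0.14 on the log2 scale (adjusted p = 0.00755) without overlap and passed in all 6 fits that left out 1 rat. Azgp1, encoding zinc-alpha-2-glycoprotein, was at 6.89, 6.96 and 6.94 in the controls and 7.43, 7.32 and 7.44 with PCN. Azgp1 rose, without overlap, by 0.46 ± 0.09 (adjusted p = 0.0162), and it passed in 3 of the 6 fits that left out 1 rat (adjusted p from 0.0255 to 0.0602).

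Of 14 further clotting and fibrinolysis genes 1 fell and none rose, with a median of -0.14. Gas6, encoding a vitamin K-dependent ligand of the TAM receptor kinases, was at 0.51, 0.15 and 0.51 in the controls and -0.34, -0.57 and -0.51 with PCN. All PCN rats were far below the controls, and Gas6 fell by 0.86 ± 0.14 (adjusted p = 0.00772), passing in all 6 fits that left out 1 rat. The markers of T cells, stellate cells and other cells that fell are given above, and their part in the falls of Fn1 and Gas6 was not tested. Genes of the vitamin K cycle were read as well. Nqo1, encoding a quinone reductase, was at -0.83, -1.11 and -0.43 in the controls and 0.39, 0.33 and -0.19 with PCN, without overlap. Nqo1 rose by 0.96 ± 0.23 (adjusted p = 0.0277), and passed in 2 of the 6 fits that left out 1 rat (adjusted p from 0.0224 to 0.0856). The carboxylase Ggcx and the reductase Vkorc1, named after their values were seen as the central enzymes of the cycle, had log2 fold changes of 0.21 ± 0.11 and -0.08 ± 0.11 and did not pass.

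Of 25 further complement genes none passed limma's test, while 1 higher and 1 lower had an unadjusted p under 0.05. These were Clu, encoding clusterin, an inhibitor of the membrane attack complex, with 0.29 ± 0.11 (adjusted p = 0.0996), and Cfp, encoding properdin, which stabilises the alternative pathway convertase, with -0.50 ± 0.14 (adjusted p = 0.0541). Neither had overlapping groups. This list shares C1qa, C1qb, C1qc and Vsig4 with the Kupffer cell markers given above, so it does not stand for hepatocyte transcripts alone. The part of cell types in the value of Cfp was not tested.

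Of 21 genes of acute phase signalling 1 rose and 2 fell, with a median of -0.03. Socs3, encoding the feedback inhibitor that interleukin-6 induces through STAT3, was at -2.42, -2.69 and -2.22 in the controls and -3.11, -3.09 and -3.37 with PCN. Socs3 fell by 0.75 ± 0.15 without overlap (adjusted p = 0.0180, passing in 3 of the 6 fits that left out 1 rat, from 0.0206 to 0.0611). Its call was lost under quantile normalization (-0.53, adjusted p = 0.0647) and cyclic loess (-0.56, adjusted p = 0.0562), its log2 fold change was -0.41 under normexp, and over all alternatives the adjusted p ran from 0.00615 to 0.0648. The interleukin-6 receptor Il6r and Stat3, named after their values were seen, had log2 fold changes of -0.73 ± 0.22 (adjusted p = 0.0581) and -0.52 ± 0.15 (adjusted p = 0.0555), without overlap but short of the threshold. Other genes of the list did not go the same way. Il6st had -0.03 ± 0.17, while Jak1 (0.18 ± 0.10) and Lifr (0.34 ± 0.13) were higher without overlap, also short of the threshold. Of the 21 log2 fold changes 10 were positive and 11 negative. Nr3c1, encoding the glucocorticoid receptor, was at -1.09, -0.85 and -0.75 in the controls and -1.52, -1.36 and -1.46 with PCN and fell by 0.55 ± 0.12 (adjusted p = 0.0235). Nfkbia, encoding an inhibitor of NF-kB, was at 0.50, 0.48 and 0.48 in the controls and 0.79, 0.89 and 1.08 with PCN and rose by 0.44 ± 0.11 (adjusted p = 0.0344). Neither gene overlapped between groups, but Nr3c1 passed in 2 and Nfkbia in 1 of the 6 fits that left out 1 rat, with adjusted p up to 0.0826 and 0.103. The mean over the probes of Nr3c1 gave -0.27 (adjusted p = 0.149), and its call was also lost under quantile normalization (adjusted p = 0.0629) and median scaling (adjusted p = 0.0881), over a range of 0.0118 to 0.149.

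Of 13 liver transcription factors 1 rose and none fell, with a median of -0.10. Hnf4a, encoding a nuclear receptor that maintains many hepatocyte genes, was at -1.86, -1.89 and -2.10 in the controls and -1.38, -1.44 and -1.15 with PCN. The groups did not overlap and Hnf4a rose by 0.63 ± 0.13 (adjusted p = 0.0160), passing in 5 of the 6 fits that left out 1 rat (adjusted p = 0.0598 without control rat 3, with a range of 0.0278 to 0.0598).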

How the data were processed

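Liver RNA of 6 rats (100 ng per sample, Cy3) was read on Agilent 1-colour arrays. The deposited scanner intensity is the processed signal of Feature Extraction 10.7.3.1, background-subtracted within each array without scaling between arrays, per the file headers. A value table of the authors, which matches a linear ratio of each signal to the 75th percentile on its array, served as an alternative. The files name the build rn4, and gene names and promoters come from RefSeq tables of GRCr8.

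These intensities were divided by the 75th percentile over non-control spots of the same array and put on the log2 scale (R 4.3.3, data.table version 1.17.8). Control and outlier spots were left out, and spots of 1 probe were averaged. A probe was kept where it was well above background throughout either group, and the brightest tested probe stood for a gene. The 40 member genes matched 40 probes. The test was limma 3.58.1 on all 6 arrays (lmFit and eBayes, two-sided, no covariate), with Benjamini-Hochberg adjustment over 16389 genes and features and a threshold of 0.05. The number of arrays limits the precision. The fit was tested on simulated data.

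Every array value is given for members past the test, members whose groups do not overlap, the highest and lowest member of each role, and members with disagreeing probes. Fga, Orm1, Crp, Lbp, Kng2 and Kng2l1 were added after their values were seen. Of each wider list the genes past the test are named, or else the largest and smallest change; 1 gene of these lists that passed is not reported here. The members and lists were chosen with earlier results of these data known. Alternatives were other normalizations, background correction (normexp, offset 50, on the median spot and background signals, since mean signals are not among the columns used), filters, probe rules, a replicate block, and leaving out each rat. Deviations of same-numbered rats correlated at -0.10, -0.03 and -0.05, so the numbers were not taken as pairs.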

Additional observations from a re-analysis of the deposited data

How the results depend on the processing

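With 3 rats a group the spread between rats limits what can be seen: the median 95% interval of a member reached 0.32 log2 units to each side and the widest 1.00. The deposited table, keeping outlier spots, a filter on all 6 arrays and averaging over probes kept the member count at 1. The cause of the changes below was not tested.

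The calls over all genes numbered 3263 (78.1% lower), 1967 with no filter on dim probes and 2039 to 2567 when 1 rat was left out. The share that was lower was 55.4% under quantile normalization, 41.0% under median scaling, 96.4% under spike-in scaling, 65.0% under cyclic loess and 64.4% under normexp.

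The members past the test numbered 2 under median scaling (Crp higher, Kng1 lower), 7 under spike-in scaling (F7, Fga, Fgg, Itih3, Kng1, Mbl1 and Serpind1, all lower), 2 under cyclic loess and 2 under normexp (Fgg and Kng1 in both), and 1 to 3 when 1 rat was left out (3 without PCN rat 1). The genes of the wider lists past the test numbered 9 (4 higher, 5 lower), with 18 under median scaling (15 higher, 3 lower), 18 under spike-in scaling (0 higher, 18 lower), 2 without the filter (Fn1 and Gas6) and 4 to 9 when 1 rat was left out. Of these, 4 was reached without control rat 1 and without control rat 3, and 5 without PCN rat 3. Kng2 lost its call under median scaling (adjusted p = 0.0734) and without the filter (0.0914).

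The replicate number as a block, although the numbers did not pair the rats, gave 2067 calls over all genes, 0 members (Kng1 adjusted p = 0.0529) and 2 genes of the wider lists (Fn1 and Gas6).

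Class medians became 0.24 (acute phase and carrier), 0.12 (coagulation) and 0.28 (complement) under median scaling, and -0.22, -0.33 and -0.17 under spike-in scaling. Leaving out 1 rat gave -0.04 to 0.13, -0.16 to -0.02 and 0.04 to 0.13.

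Changes near 0 turned sign. Under median scaling Saa4 was 0.013, Fgb 0.17, F9 0.18 and Kng2l1 0.0065, and under quantile normalization Fgb was 0.0040. Under spike-in scaling Alb was -0.22, Proc -0.24, C3 -0.10 and Cfb -0.12, under cyclic loess Alb -0.032 and Proc -0.022, and under normexp Alb -0.037 and Proc -0.0066. Leaving out 1 rat turned Proc (without control rat 1, PCN rat 1 or PCN rat 3, over a range of -0.10 to 0.19), Alb (without control rat 3 or PCN rat 3, -0.070 to 0.11) and F9 (without control rat 3, -0.12 to 0.054).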

Other observations

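Genes related to the members by sequence were also read. Pzp, encoding a protease inhibitor of the alpha-macroglobulin family like A2m, was at 7.18, 7.47 and 7.42 in the controls and 7.21, 6.73 and 7.14 with PCN. Its groups overlapped, with a log2 fold change of -0.33 ± 0.16 (limma adjusted p = 0.197), against 0.62 ± 0.34 for A2m. Serpina3c, related to Serpina3n, had a log2 fold change of 0.04 ± 0.14 (adjusted p = 0.869), close to the 0.03 ± 0.14 of Serpina3n. The difference between such genes was not tested.

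Within arrays, Mbl1 minus Mbl2 was 1.06, 1.08 and 0.72 in the controls and 0.88, 0.44 and 0.29 with PCN, so the groups overlapped. Kng1 minus F12, another gene of contact activation, was -2.02, -2.29 and -2.21 in the controls and -2.73, -2.92 and -2.73 with PCN, without overlap. These pairs were chosen after their values were seen and were not tested.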
